A study of Panax japonicus with 5 samples.

Results

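Unigenes of 10 enzymes that make and use sucrose and starch were followed in 5 tissues of Panax japonicus, a medicinal relative of ginseng with a bamboo-like rhizome. The unigenes were those whose contigs the authors' annotation lists under the enzyme numbers of sucrose-phosphate synthase, sucrose synthase, invertase, ADP-glucose pyrophosphorylase, starch synthase, branching enzyme, alpha-amylase, beta-amylase, phosphorylase and disproportionating enzyme. Of 612 contig entries in those lists, 216 were used here, namely all 18 for disproportionating enzyme and 22 for each of the others, out of 29 (branching enzyme) to 100 (beta-amylase). Sums and ratios between enzymes thus compare lists used to different depths. They fell into 135 unigenes of the 135235 in the assembly. Of these, 5 were on a pair of lists (4 as branching enzyme and alpha-amylase, 1 as sucrose-phosphate synthase and sucrose synthase) and were left out of the sums per enzyme. The enzyme names rest on the authors' similarity search, and a unigene can be a whole transcript or a fragment of one.

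Sucrose is the form in which most plants move fixed carbon from leaves to roots, flowers and storage organs, where sucrose synthase or invertase splits it. Starch is built from ADP-glucose, which ADP-glucose pyrophosphorylase makes, by starch synthases that extend the glucan chains and by branching enzymes that join new chains to them. Amylases, phosphorylase and the disproportionating enzyme take the granule and its chains apart again, and in plants whose rhizomes hold starch these enzymes can be present in the same organ as those that build it.

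The study sequenced 1 library for each of flower, leaf, rhizome_Y, rhizome_O and secRoot. By its methods all came from 1 plant aged 7 years that grew outdoors in a medicinal plant garden, and no treatment is described. Bud scars mark where the stems of earlier years stood. Rhizome_Y is the part at the first of these scars, nearest the stem, and secRoot is the secondary root. Rhizome_O is given in the study's methods as the part at the sixth scar, and elsewhere in its text as the sixth with the seventh. Each group is thus 1 library of 1 individual, so a difference between tissues could not be held against any replicate and p-values are left out. Intervals are exact 95% intervals of the counts and cover counting error only. In bulk tissue, fewer cells of a type and less RNA per cell cannot be told apart.

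The libraries held 2403221 (flower) to 4920387 (secRoot) expected counts, the authors' estimate of the read pairs that belong to each contig. Levels are given as FPKM, that is counts scaled by contig length and by the mapped pairs of the library, summed over the contigs of a unigene. The leaf library stood apart from the other 4. Of 47667 unigenes with at least 20 counts over the 5 libraries, 36.5% were more than 20-fold higher in leaf than in the other 4 on average and 60.1% more than 20-fold lower. As a check of the leaf label, the summed FPKM of 23 unigenes of 4 Calvin cycle enzymes was 7068 in leaf, 1130.0 in flower and 33.6 to 74.0 in the underground tissues, though 10 of the 23 had 0 counts in leaf. Comparisons below are therefore made among flower, both rhizomes and secRoot, and leaf is given on its own.

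All 135 unigenes had at least 1 count. At least 20 counts over the 5 libraries were found for 79, and at least 20 over the 4 libraries other than leaf for 47. The remaining 56 were under 20 counts and are not compared between tissues. Median length was 588 bp, against 356 bp over the whole assembly. These unigenes took 0.700% of all counts in rhizome_Y and 0.728% in rhizome_O, against 0.411% in flower, 0.312% in leaf and 0.235% in secRoot. Of their 19872 counts in rhizome_Y, TR65577|c2_g1, TR68986|c0_g1 and TR60064|c0_g1 held 5806, 4421 and 3861. In rhizome_O they held 3974, 4817 and 7554 of 24632, and in flower 2286, 133 and 23 of 9876. The higher shares of the rhizomes than of flower thus rest on these unigenes.

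Summed by enzyme, beta-amylase and branching enzyme had the widest range among the 4 tissues. The highest of the 4 sums was 18.5 times the lowest for beta-amylase and 9.15 times for branching enzyme, and both were higher in the rhizomes than in flower and secRoot. Disproportionating enzyme (5.28 times) and sucrose-phosphate synthase (4.2 times) were highest in flower. Invertase, at 1.27 times, differed least. The range of beta-amylase was 8.85 times without the short unigene TR35404|c0_g1, and that of branching enzyme 6.22 times without TR68986|c3_g1, short unigenes that may be pieces of others. A single unigene held up to 90.3% of such a sum (phosphorylase in rhizome_Y), so the unigenes are described singly.

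**Figure D1:**
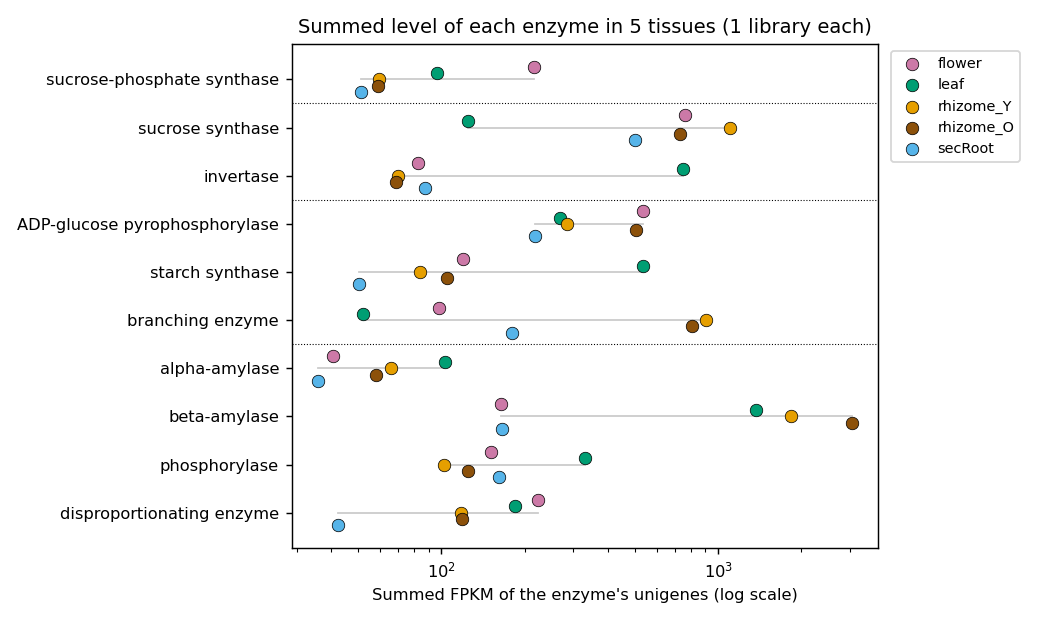
Summed FPKM of the unigenes of each enzyme (rows) on a log scale, with 1 point per tissue and dotted lines between sucrose synthesis, sucrose cleavage, starch synthesis and starch breakdown. Beta-amylase reached 1840.3 for rhizome_Y and 3035 for rhizome_O against 164 for flower and 166 for secRoot, and branching enzyme 901 and 804 against 98.5 and 179.6.

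Sucrose synthesis was highest in flower. Sucrose-phosphate synthase makes the phosphate ester of sucrose and commits carbon to it. The most abundant of its unigenes outside leaf, TR66176|c0_g1 (3970 bp), had an FPKM of 146 for flower, 39.0 for rhizome_Y, 30.4 for rhizome_O, 20.5 for secRoot and 0.74 for leaf. Flower was 3.73 times rhizome_Y (3.33 to 4.19), 4.79 times rhizome_O (4.26 to 5.4) and 7.09 times secRoot (6.29 to 8.01), beyond counting error in each. The order of the 3 underground tissues was also beyond counting error, with rhizome_Y 1.285 times rhizome_O (1.11 to 1.49) and rhizome_O 1.48 times secRoot (1.27 to 1.72).

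A further sucrose-phosphate synthase unigene, TR61633|c0_g1, was again highest in flower but had another order underground. Its FPKM was 15.6 for flower, 9.94 for secRoot, 6.31 for rhizome_O, 3.38 for rhizome_Y and 0 for leaf. SecRoot was thus 2.94 times rhizome_Y (1.95 to 4.55). In all, 3 sucrose-phosphate synthase unigenes had 20 counts outside leaf and all 3 were highest in flower, as were 35% of all unigenes. The remaining one, TR48712|c0_g1, rests on 7 counts for flower, 7 for secRoot, 5 for rhizome_O and 1 for rhizome_Y. Sucrose phosphatase, which removes the phosphate in the next step, was followed in a list of 8 other enzymes of the pathway, and its unigene TR61008|c0_g2 had an FPKM of 147 for flower, 50.4 for rhizome_Y, 50.7 for rhizome_O and 35.7 for secRoot.

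Outside leaf, most of the summed FPKM of sucrose cleavage came from sucrose synthase. This enzyme splits sucrose with UDP, in a reversible reaction, and keeps the energy of the bond in UDP-glucose. Its unigene TR65577|c2_g1 (2991 bp, 13 contigs) was among the most abundant of all 135, with an FPKM of 819.5 for rhizome_Y, 470.4 for rhizome_O, 407 for flower, 351 for secRoot and 1.65 for leaf. Rhizome_Y was 1.74 times rhizome_O (1.67 to 1.81) and 2.34 times secRoot (2.25 to 2.43). Rhizome_O, flower and secRoot followed each other by 1.16 times (1.1 to 1.22) in both steps. The order of flower and rhizome_O turned over when only the listed contig was used, with a log2 difference of flower over rhizome_O of 0.74 in place of -0.21.

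The contigs of TR65577|c2_g1 were not used alike. Contig i10 (1474 bp) took 8.97% of the unigene's counts in flower (95% Wilson interval 7.86 to 10.2) and 4.35% to 4.82% in the 3 underground tissues. Contig i12 (2980 bp) took 5.95% in flower (5.05 to 6.99) and 7.63% to 8.11% underground. Reads that match several contigs of a unigene are divided among them by the authors' RSEM run, so such shares are estimates.

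Sucrose synthase TR64380|c1_g1 was led by flower and rhizome_O. Its FPKM was 107 for flower, 85.4 for rhizome_O, 57.1 for rhizome_Y, 32.9 for secRoot and 0.66 for leaf. Rhizome_O was 1.5 times rhizome_Y (1.33 to 1.68), the opposite order to TR65577|c2_g1. TR18762|c0_g1 (588 bp) had 103 for flower, 73.8 for rhizome_Y, 52.4 for rhizome_O and 46.7 for secRoot.

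TR68335|c0_g1, named after its values were seen, was a sucrose synthase unigene counted in all 5 tissues, with 394 counts in leaf. Its FPKM was 52.4 for flower, 51.7 for rhizome_Y, 44.9 for rhizome_O, 32.4 for secRoot and 18.8 for leaf. The contigs behind it differed between leaf and the rest. Contig i2, which is 4643 bp against 7832 and 7790 bp for the others, held 98.0% of the unigene's counts in leaf (96.0 to 99.0) and 7.23% to 9.19% in the other 4 tissues. Whether the long contigs join more than 1 gene was not tested.

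**Figure D2:**
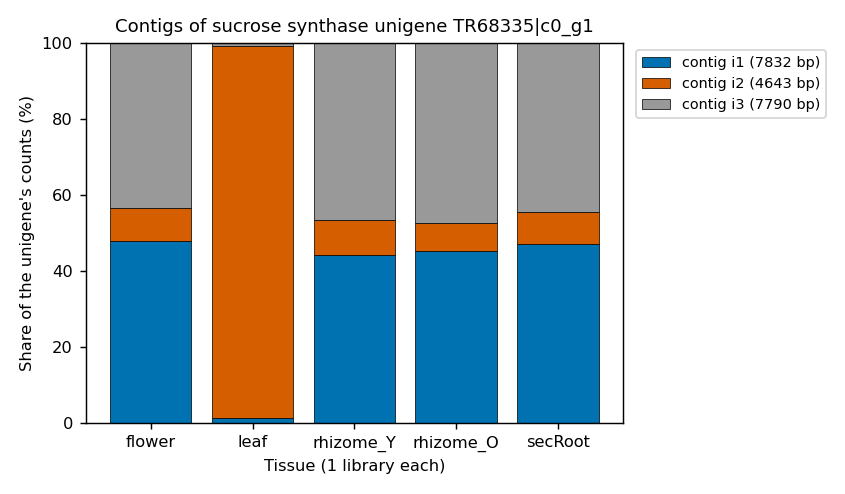
Share of the counts of sucrose synthase unigene TR68335|c0_g1 (vertical axis, percent) that fell on each of its 3 contigs, by tissue, 1 library each. Contig i2 holds 98.0% in leaf and under 10% in the other 4 tissues, where contigs i1 and i3 share the rest nearly evenly.

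Invertase, which splits sucrose with water, was lower than sucrose synthase in each tissue but leaf. The sum of sucrose synthase was 15.8 times that of invertase in rhizome_Y, 10.6 times in rhizome_O, 9.17 times in flower and 5.71 times in secRoot. The leading invertase unigene, TR56151|c1_g2, had an FPKM of 47.2 for secRoot, 42.4 for rhizome_Y, 35.2 for rhizome_O, 20.4 for flower and 0.12 for leaf. It was 1.34 times higher in secRoot than in rhizome_O (1.138 to 1.58), while secRoot and rhizome_Y were within counting error of each other (ratio 1.11, 0.946 to 1.32).

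TR67466|c3_g3, also an invertase, had instead its highest FPKM in flower, 25.3, with 13.9 for secRoot, 13.1 for rhizome_O, 8.29 for rhizome_Y and 0 for leaf. Flower was 3.05 times rhizome_Y (1.92 to 4.99). TR41817|c0_g1 had 14.7 in flower and 0.94 to 4.03 underground, on 31 counts in flower.

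Starch synthesis begins with ADP-glucose pyrophosphorylase. None of its compared unigenes was highest in secRoot, and they differed in which of the other tissues led. TR53432|c0_g1 (1980 bp) had an FPKM of 213 for flower, 129 for rhizome_O, 109.5 for rhizome_Y, 37.1 for secRoot and 0.36 for leaf. Rhizome_O was 3.46 times secRoot (3.00 to 4.01) and 1.17 times rhizome_Y (1.04 to 1.33).

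TR65383|c0_g2 (2585 bp) separated old from young rhizome. Its FPKM was 109 for rhizome_O, 86.0 for flower, 30.5 for rhizome_Y, 9.60 for secRoot and 0 for leaf. Rhizome_O was 3.59 times rhizome_Y (3.01 to 4.31) and 11.4 times secRoot (9.08 to 14.5), from 719 counts in rhizome_O against 150 and 84. The 0 in leaf puts rhizome_O at least 410-fold higher than leaf, against a floor of 3 counts in the leaf library.

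TR50138|c1_g1 (800 bp) did not follow them, since secRoot lay near the top. It had an FPKM of 117 for rhizome_O, 93.4 for secRoot, 67.0 for flower and 59.3 for rhizome_Y, and secRoot was 1.57 times rhizome_Y (1.24 to 2.01). TR47400|c0_g1 (423 bp) had 57.3 in rhizome_O and 11.9 in rhizome_Y, on 51 and 9 counts. TR60478|c0_g2 had 39.0 in flower and 6.85 to 13.9 underground. Among 10 ADP-glucose pyrophosphorylase unigenes with 20 counts outside leaf, 6 were highest in rhizome_O, 3 for flower, 1 for rhizome_Y and 0 for secRoot. Over all unigenes these shares were 24%, 35%, 17.5% and 23.5%. The 6 include TR60599|c0_g1, which had 645 counts in leaf and 16 in rhizome_O and passed the filter only through rhizome_O.

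Starch synthase, which adds glucose to the growing chains, had lower sums than ADP-glucose pyrophosphorylase outside leaf. The highest of these sums was 2.38 times the lowest, against 2.46 times for ADP-glucose pyrophosphorylase. TR56021|c0_g1 had an FPKM of 45.5 for flower, 36.2 for rhizome_Y, 33.9 for rhizome_O, 15.3 for secRoot and 0 for leaf. Rhizome_Y and rhizome_O were within counting error (ratio 1.07, 0.861 to 1.32), and both were over 2-fold above secRoot (2.37, 1.86 to 3.01, and 2.22, 1.76 to 2.81). TR63713|c0_g1 had 23.4 in flower and 11.1 to 13.8 underground, where no pair differed beyond counting error.

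The most abundant branching enzyme unigene outside leaf set the rhizomes apart from every other tissue. TR68986|c0_g1 (2930 bp) had an FPKM of 565 for rhizome_Y, 516 for rhizome_O, 94.8 for secRoot, 20.1 for flower and 0.24 for leaf, from 4421, 4817, 1286, 133 and 3 counts. The rhizomes were close, rhizome_Y being 1.09 times rhizome_O (1.05 to 1.1401). Against secRoot the ratios were 5.96 (5.6 to 6.35) and 5.45 (5.12 to 5.80), and against flower 28.2 (23.7 to 33.7) and 25.7 (21.7 to 30.8).

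TR68986|c3_g1 (401 bp), which Trinity put in the same cluster, showed that order too, with 309 for rhizome_Y, 259 for rhizome_O, 72.5 for secRoot, 3.28 for flower and 0 for leaf. Its counts were 4.59% to 7.00% of those of TR68986|c0_g1 in the rhizomes and secRoot, and whether it is a piece of the same transcript was not tested. Both are in the sums and counts given here, and without TR68986|c3_g1 the summed FPKM of branching enzyme was 592 for rhizome_Y, 545 for rhizome_O, 107 for secRoot and 95.2 for flower.

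The other branching enzyme, TR67632|c0_g2 (3149 bp), was highest in flower. Its FPKM was 75.1 for flower, 28.5 for rhizome_O, 27.1 for rhizome_Y, 2.92 for secRoot and 0.21 for leaf. Flower was 2.77 times rhizome_Y (2.18 to 3.54) and 25.7 times secRoot (18.1 to 37.7). Flower and rhizome thus held different branching enzyme unigenes as the most abundant one, and in flower TR67632|c0_g2 was 76.3% of the summed FPKM of the enzyme. The ratio of rhizome_O to secRoot was 9.75 on FPKM, while the log2 difference fell from 3.241 to 2.493 on counts scaled by depth alone. Flower had 277 of 2403221 counts and secRoot 35 of 4920387. Scaled by depth alone, their ratio too was lower than on FPKM and lay below the interval given.

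**Figure D3:**
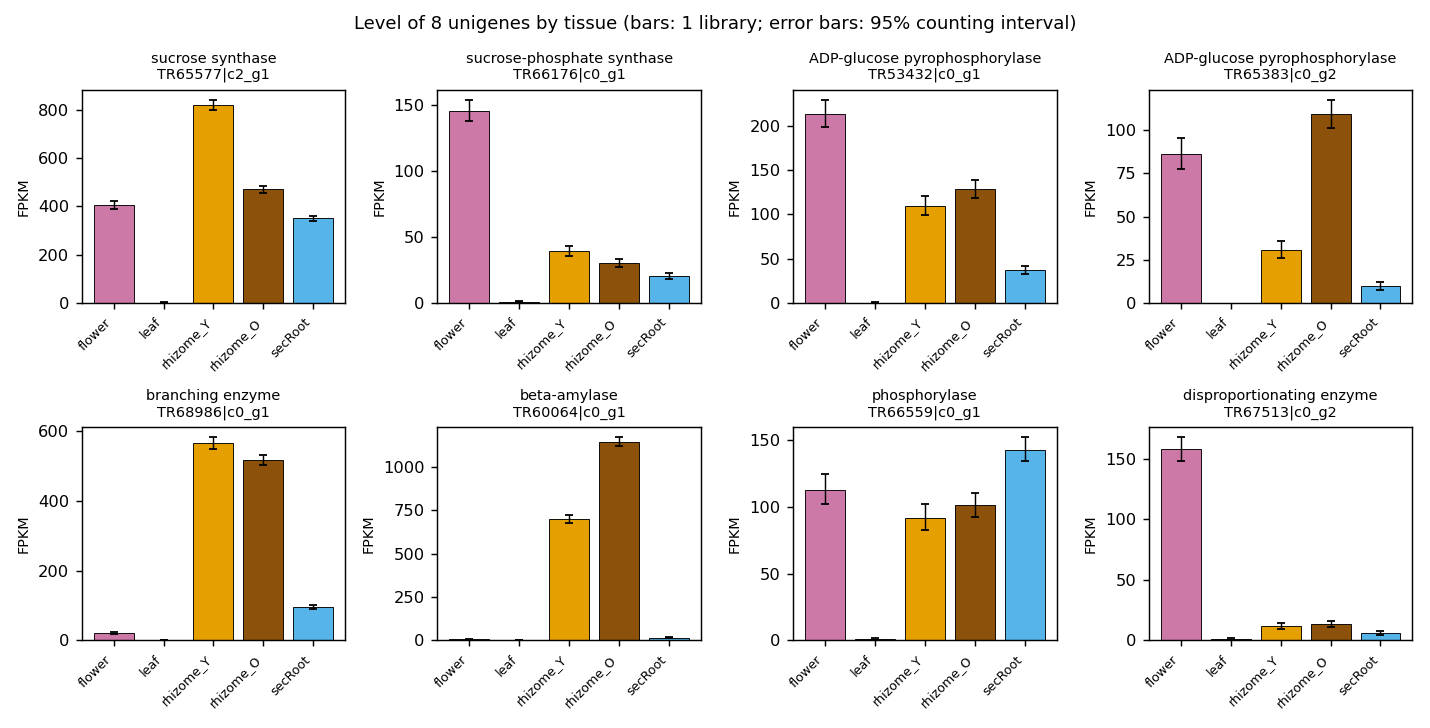
FPKM (vertical axes from 0, on a scale of their own in each panel) of 8 unigenes in the 5 tissues. Bars are 1 library each and error bars are exact 95% counting intervals. Branching enzyme TR68986|c0_g1 and beta-amylase TR60064|c0_g1 stand high in both rhizomes, sucrose-phosphate synthase TR66176|c0_g1 and disproportionating enzyme TR67513|c0_g2 in flower, and phosphorylase TR66559|c0_g1 varies little outside leaf.

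Most of the summed FPKM of starch breakdown in the rhizomes came from beta-amylase, which removes maltose from chain ends. TR60064|c0_g1 (2096 bp) had an FPKM of 1147 for rhizome_O, 699 for rhizome_Y, 14.5 for secRoot, 4.91 for flower and 0.78 for leaf, from 7554, 3861, 139, 23 and 7 counts. Both rhizomes were far above all other tissues. Rhizome_O was 1.64 times rhizome_Y (1.58 to 1.71), 79.0 times secRoot (66.8 to 94.1) and 234 times flower (156 to 369).

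TR35404|c0_g1 (385 bp), the beta-amylase unigene with the highest FPKM of all, followed it closely. Its FPKM was 1797 for rhizome_O, 1079.7 for rhizome_Y, 25.9 for secRoot, 7.02 for flower and 0.92 for leaf, from 1435, 722, 30, 4 and 1 counts. In flower, the rhizomes and secRoot its counts were 17.4% to 21.6% of those of TR60064|c0_g1. Whether it is a fragment of the same transcript was not tested, and levels of so short a contig depend on its estimated effective length.

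The remaining beta-amylases did not share the rhizome pattern. TR68381|c0_g1 had an FPKM of 32.6 in flower and 10.8 to 13.7 underground. TR21344|c0_g1 (261 bp) had 88.7 for secRoot, 76.8 for flower, 39.3 for rhizome_O and 22.0 for rhizome_Y, on 7 to 49 counts. TR64997|c0_g1 had 30.8 in rhizome_O and 11.5 to 15.5 in the other 3, but the log2 difference of rhizome_Y to rhizome_O went from -1.41 on summed FPKM to -0.02 on counts scaled by depth alone.

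Alpha-amylase, which cuts inside the chains, stood far below beta-amylase in the rhizomes. TR66180|c0_g1 had an FPKM of 32.5 for rhizome_O, 21.8 for secRoot, 17.2 for rhizome_Y, 12.7 for flower and 0 for leaf. On FPKM summed over its 5 contigs, rhizome_O was 1.89 times rhizome_Y (1.42 to 2.54). Its counts were 126 of 3382436 in rhizome_O and 80 of 2836971 in rhizome_Y, a smaller difference that lies below that interval. TR51702|c0_g1 went the other way between the rhizomes. It had 27.4 for rhizome_Y, 7.42 for rhizome_O, 4.56 for flower, 3.67 for secRoot and 0.17 for leaf, with rhizome_Y 3.69 times rhizome_O (2.45 to 5.68) on 99 against 32 counts.

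Phosphorylase, which releases glucose 1-phosphate, differed least among the breakdown enzymes, the highest of its 4 sums outside leaf being 1.59 times the lowest. TR66559|c0_g1 (12 contigs) had an FPKM of 143 for secRoot, 113 for flower, 101 for rhizome_O, 92.1 for rhizome_Y and 0.86 for leaf. SecRoot was 1.41 times rhizome_O (1.27 to 1.58). Rhizome_Y and rhizome_O were within counting error (ratio 0.910, 0.795 to 1.04), as were flower and rhizome_O (1.11, 0.976 to 1.27). On its most abundant contig alone the log2 difference of rhizome_O to secRoot was 0.36 in place of -0.50, so its order rests on the summing over contigs. TR67317|c0_g1 had 32.2 for flower, 15.6 for secRoot, 14.0 for rhizome_O and 7.70 for rhizome_Y.

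For disproportionating enzyme, which moves glucan pieces between chains or to glucose during breakdown, the leading unigenes outside leaf differed in their highest tissue. TR67513|c0_g2 (3310 bp) had an FPKM of 158 for flower, 13.7 for rhizome_O, 11.5 for rhizome_Y, 5.99 for secRoot and 0.87 for leaf, and flower was 11.6 times rhizome_O (9.55 to 14.1) and 26.4 times secRoot (21.0 to 33.5). TR56006|c0_g1 (2200 bp) had instead 106 for rhizome_Y, 105 for rhizome_O, 65.5 for flower, 36.3 for secRoot and 0.11 for leaf. The rhizomes were within counting error of each other (ratio 1.0103, 0.887 to 1.15) and were 2.91 (2.48 to 3.42) and 2.88 (2.47 to 3.373) times secRoot.

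**Figure D4:**
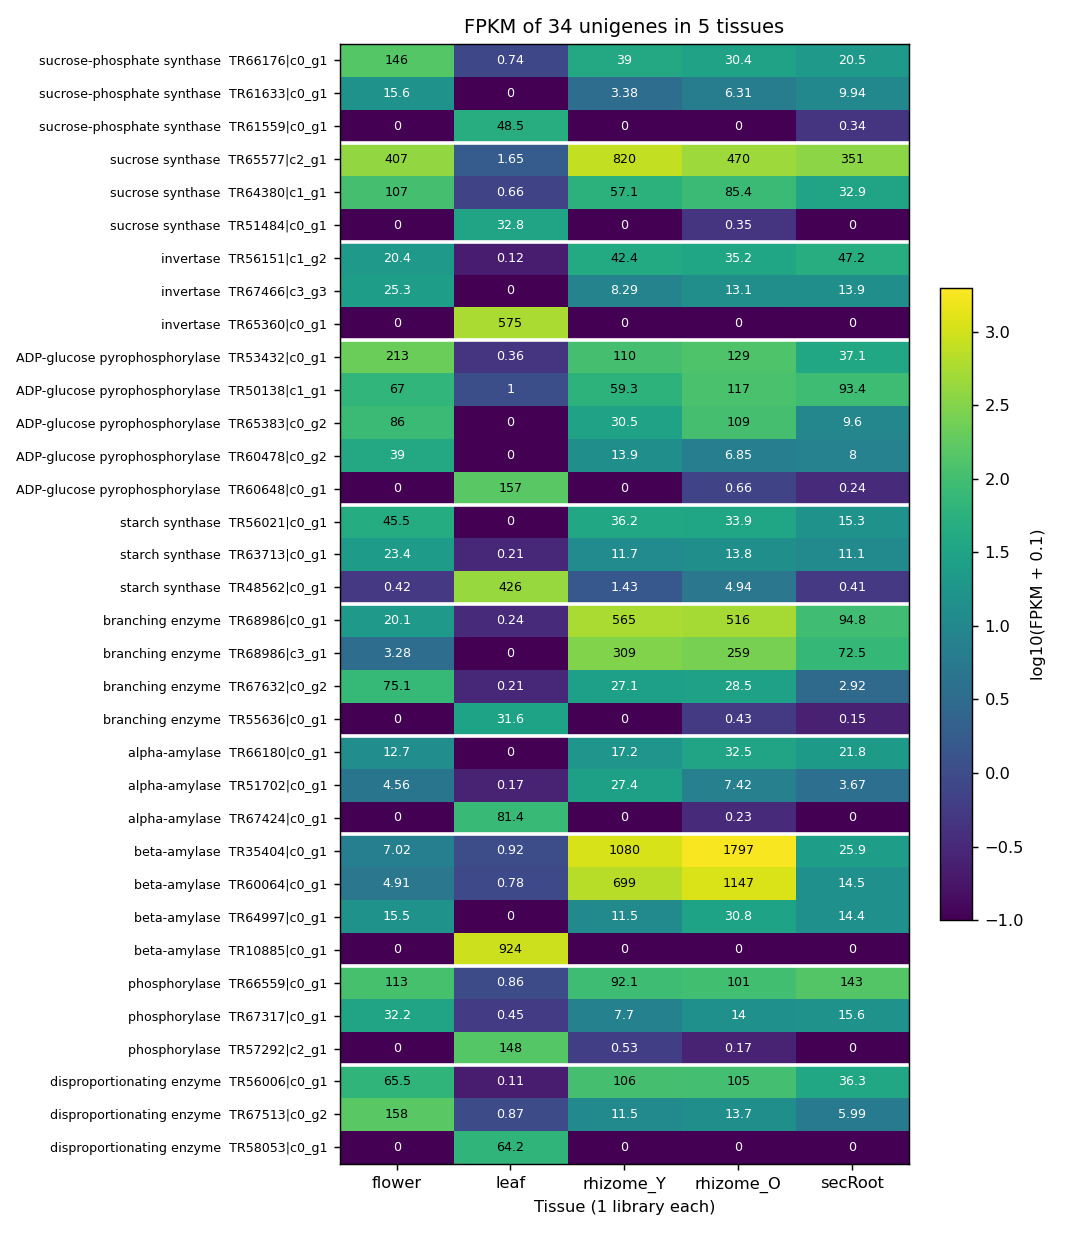
FPKM of 34 unigenes (rows, grouped by enzyme) in 5 tissues (columns, 1 library each). Colour is log10 of FPKM with 0.1 added and the number in each cell is the FPKM. In the leaf column the unigenes that are high elsewhere lie at 1.65 or below, and each enzyme has another unigene that is high in leaf alone.

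Counted over all 47 unigenes with 20 counts outside leaf, and with 2-fold on log2(FPKM + 0.1) as the limit, both rhizomes stood above secRoot. In rhizome_O, 20 unigenes were over 2-fold above secRoot, against 13.3% of the 30264 unigenes of the assembly that passed the same filter, and 1 was over 2-fold below it, against 11.4%. The median log2 difference was 0.57, and 0.10 over all unigenes. Starch synthesis gave 12 higher and 0 lower of 19 with a median of 1.53. Starch breakdown gave 6 higher and 1 lower of 13 with a median of 1.0, and sucrose cleavage 2 higher and 0 lower of 11. The 12 include TR48562|c0_g1 and TR60599|c0_g1, with 3875 and 645 counts in leaf, 33 and 16 in rhizome_O and 4 and 3 in secRoot. Both reached 20 counts outside leaf only through rhizome_O, so their calls for rhizome_O are not independent of the filter. Without TR35404|c0_g1 and TR68986|c3_g1, which may be pieces of other unigenes, 18 were higher and 1 lower of 45 with a median of 0.56.

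In rhizome_Y, 19 of the 47 were over 2-fold above secRoot and 5 below it, with 12.2% and 13.7% over all unigenes. The median was 0.78, and -0.02 over all unigenes. The 11 higher of 19 in starch synthesis included all 3 branching enzyme unigenes, 5 of 10 ADP-glucose pyrophosphorylases and 3 of 6 starch synthases. TR48562|c0_g1 and TR60599|c0_g1, which are high in leaf, were again among them, on 8 and 5 counts in rhizome_Y. The 5 higher in secRoot were 2 of 3 sucrose-phosphate synthases, 1 ADP-glucose pyrophosphorylase, 1 beta-amylase and 1 of 2 phosphorylases, and the most abundant sucrose-phosphate synthase was higher in rhizome_Y. Without TR35404|c0_g1 and TR68986|c3_g1 the counts were 17 and 5 of 45 with a median of 0.67, and 10 of 18 in starch synthesis, with 2 of 2 branching enzymes.

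Young and old rhizome differed little by this count. Of the 47, 5 passed 2-fold with rhizome_Y higher and 6 with rhizome_O higher, near the 9.71% and 13.5% over all unigenes. Within 2-fold were 36, as were 23238 of the 30264 unigenes of the assembly. None of 3 branching enzyme, 2 phosphorylase and 2 disproportionating enzyme unigenes passed 2-fold in either direction. These are too few to set apart from the share over all unigenes. Most of those with rhizome_Y higher rest on few counts. They were sucrose synthase TR39312|c0_g1 (4 counts in rhizome_Y against 2 in rhizome_O), invertases TR41817|c0_g1 (10 against 5) and TR33349|c0_g1 (13 against 7), ADP-glucose pyrophosphorylase TR60478|c0_g2 (34 against 20) and alpha-amylase TR51702|c0_g1 (99 against 32). A pseudocount of 1 left 1 of the 5. Of the 6 higher in rhizome_O, 3 were ADP-glucose pyrophosphorylases, and most of the 6 rest on few counts too. These were TR65383|c0_g2 (150 counts in rhizome_Y against 719 in rhizome_O), TR47400|c0_g1 (9 against 51) and TR60599|c0_g1 (5 against 16, high in leaf). The others were starch synthase TR48562|c0_g1 (8 against 33, high in leaf), beta-amylase TR64997|c0_g1 (48 against 58) and sucrose-phosphate synthase TR48712|c0_g1 (1 against 5). TMM factors computed over all 5 libraries, which ranged from 0.0651 in leaf to 5.23 in flower, gave 0 and 46, while TMM factors over the 4 libraries without leaf gave 5 and 6 again.

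**Figure D5:**
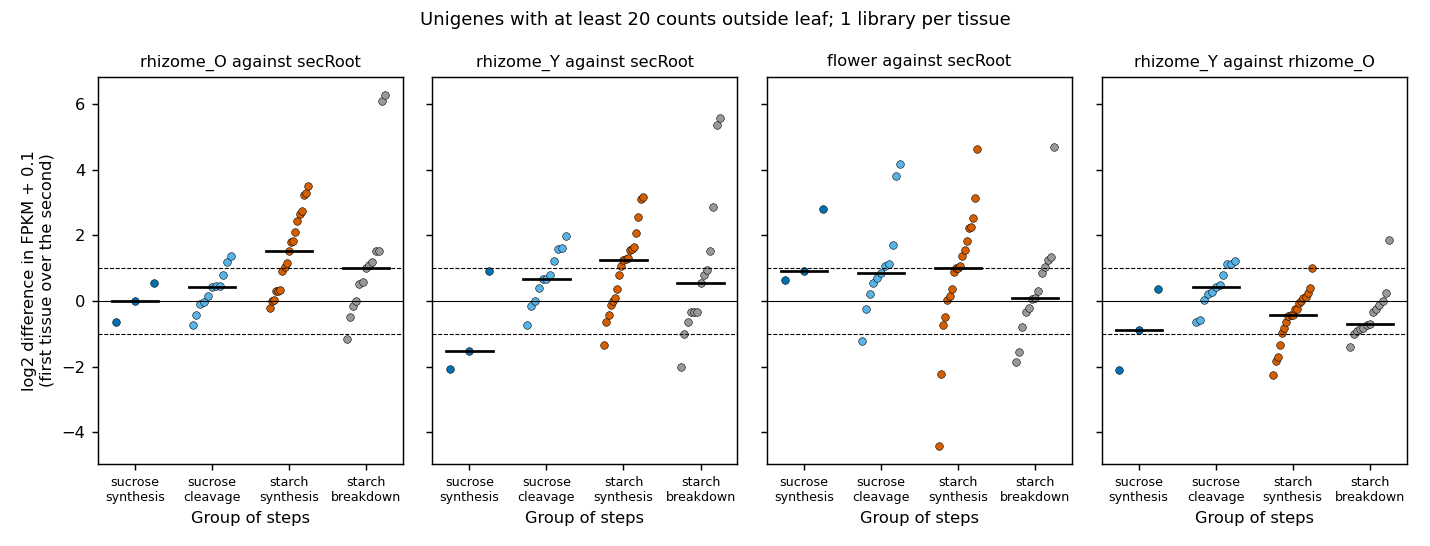
Log2 difference in FPKM + 0.1 (vertical axis) of the unigenes with at least 20 counts outside leaf that are on 1 list, in 4 pairs of tissues. Points are unigenes, black bars medians and dashed lines 2-fold. In rhizome_O against secRoot 12 of 19 starch synthesis unigenes lie above the upper line and 0 below the lower one. The 12 include TR48562|c0_g1 and TR60599|c0_g1, which are high in leaf. The highest pair of grey points is beta-amylase.

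Flower too stood above secRoot, with 20 of 47 over 2-fold higher and 5 lower, against 22.4% and 20.5% over all unigenes, and a median of 0.86 against 0.06. Without TR35404|c0_g1 and TR68986|c3_g1 these were 20 and 3 of 45. Among these were 4 of 6 sucrose synthases, 6 of 10 ADP-glucose pyrophosphorylases and 3 of 6 starch synthases. Compared with rhizome_Y, 16 were higher in flower and 9 in rhizome_Y (19.7% and 17.5% over all unigenes). Compared with rhizome_O, 10 and 9 passed, near the 18.2% and 19.1% over all unigenes. These comparisons share libraries and are not independent of each other. With TMM factors over all 5 libraries the splits for flower became 9 and 13 (secRoot), 7 and 16 (rhizome_Y) and 0 and 44 (rhizome_O), and with factors over the 4 libraries without leaf they were 16 and 5, 15 and 11, and 10 and 9.

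By the tissue of the highest FPKM, 22 of the 47 were highest in flower, 13 for rhizome_O, 9 for rhizome_Y and 3 for secRoot, against 35%, 24%, 17.5% and 23.5% over all unigenes. The 13 of rhizome_O include TR48562|c0_g1 and TR60599|c0_g1, which were higher still in leaf. The 3 of secRoot were invertase TR56151|c1_g2, phosphorylase TR66559|c0_g1 and beta-amylase TR21344|c0_g1. None of 19 starch synthesis unigenes was highest in secRoot.

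Set side by side, the summed FPKM of starch synthesis was 1416 for rhizome_O, 1269 for rhizome_Y, 752 for flower and 447 for secRoot, and that of starch breakdown 3337, 2126, 580.3 and 406. The ratio of synthesis to breakdown was 0.424 for rhizome_O, 0.597 for rhizome_Y, 1.103 for secRoot and 1.30 for flower. In leaf, where other unigenes made up both sums, it was 0.429. These ratios depended on short unigenes. Without TR35404|c0_g1 alone they were 0.919 in rhizome_O and 1.213 in rhizome_Y. Without both TR35404|c0_g1 and TR68986|c3_g1, synthesis summed to 960 and breakdown to 1046 in rhizome_Y, and to 1157 and 1540 in rhizome_O. On summed FPKM, synthesis thus stayed below breakdown in both rhizomes when both were left out. On counts, synthesis had 5817 and breakdown 5859 in rhizome_Y with both kept. TR68986|c3_g1 held 221 of the former and TR35404|c0_g1 722 of the latter, so on counts without them synthesis was above breakdown in rhizome_Y. The sums also differed in their makeup. Branching enzyme was 71.0% of the synthesis sum in rhizome_Y and 56.8% in rhizome_O but 13.1% in flower, where ADP-glucose pyrophosphorylase was 70.9%. In breakdown, beta-amylase was 86.6% and 91.0% in the rhizomes, disproportionating enzyme led in flower (38.5%), and secRoot was shared between beta-amylase (40.8%) and phosphorylase (39.9%). Without TR35404|c0_g1 and TR68986|c3_g1 the shares in rhizome_Y and rhizome_O were 61.7% and 47.1% for branching enzyme and 72.7% and 80.4% for beta-amylase. The lists behind these shares were not used to the same depth, with 18 of 18 entries for disproportionating enzyme, 22 of 100 for beta-amylase and 22 of 65 for phosphorylase.

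Leaf held other unigenes for every one of the 10 enzymes. Of the 79 unigenes with 20 counts, 34 had an FPKM in leaf over 2-fold higher than the average of flower, rhizomes and secRoot, 45 over 2-fold lower and 0 within 2-fold, with 36.8% and 62.9% over all unigenes. Of the 47 counted outside leaf, 37 had 3 or fewer counts in leaf, and 41 of all 135 were counted in leaf alone. The same shares over all unigenes were not taken, so these are not read as a trait of these enzymes. The study itself reports leaf as the tissue with the most unigenes found nowhere else. The order of the 2 counts turned over with median-of-ratios scaling, which gave 40 above and 29 below. The main counts lie near the share of the whole assembly, so nothing particular to these enzymes is read from them. The study's methods give leaf as a tissue of the same plant. Of the 135 unigenes 44 were counted both there and in another tissue, again with no share over all unigenes taken. The leaf library may differ from the others in more than its tissue. What sets it apart was not tested.

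The leaf unigenes include ones of each step. Starch synthase TR48562|c0_g1 (2140 bp) had an FPKM of 426 in leaf, from 3875 counts, and 0.41 to 4.94 elsewhere. The leading ADP-glucose pyrophosphorylase, TR60648|c0_g1, had 157 in leaf and at most 0.66 elsewhere, and TR60599|c0_g1 had 81.0 in leaf and 0.35 to 2.74 elsewhere. Branching enzyme was low in leaf, with TR55636|c0_g1 at 31.6.

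Among the leaf unigenes of breakdown, beta-amylase TR59762|c0_g1 (1781 bp) had 326 from 2459 counts, against 0 to 1.27 elsewhere. TR10885|c0_g1 had an FPKM of 924 but is 242 bp long and rests on 398 counts. Phosphorylase TR57292|c2_g1 had 148, alpha-amylase TR67424|c0_g1 81.4 and disproportionating enzyme TR58053|c0_g1 64.2. Phosphorylase and disproportionating enzyme were each spread over 5 unigenes that were highest in leaf.

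For sucrose in leaf, sucrose-phosphate synthase TR61559|c0_g1 had an FPKM of 48.5, sucrose synthase TR51484|c0_g1 32.8 and invertase TR65360|c0_g1 575, the last on a contig of 303 bp with 409 counts. Against 0 counts in flower, the level of TR65360|c0_g1 in leaf was at least 71.7-fold higher, and against secRoot at least 145-fold. The sum of sucrose synthase was 0.168 times that of invertase in leaf, the lowest of the 5 tissues, but 77.3% of the invertase sum was this short contig.

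The 8 other enzymes of the pathway, with 73 unigenes of which 22 had 20 counts outside leaf, were compared in the same way. Over 2-fold from secRoot were 4 higher and 0 lower in rhizome_Y (12.2% and 13.7% over all unigenes), 2 and 1 in rhizome_O (13.3% and 11.4%), and 8 and 1 in flower (22.4% and 20.5%). The medians were 0.65, 0.33 and 0.70. UDP-glucose pyrophosphorylase, which turns the UDP-glucose from sucrose synthase into glucose 1-phosphate, was led by TR56407|c4_g2 with an FPKM of 466 for rhizome_Y, 244 for rhizome_O, 235 for flower and 147 for secRoot, an order in which rhizome_Y leads as in TR65577|c2_g1. Both sucrose phosphatase unigenes with enough counts were over 2-fold higher in flower than in each underground tissue.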

How the data were processed

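Poly(A) RNA of 5 tissues was sequenced by the authors with a strand-specific kit. After trimming (Trimmomatic), a joint assembly was made with Trinity 2.0.6, reads were aligned to its contigs with Bowtie 2.0, and RSEM gave the abundances. For Trimmomatic and RSEM the version is not stated in any source used. The deposited expected counts of the authors are read pairs per contig, and all were whole numbers. The deposited FPKM of the authors are these counts divided by effective contig length and by library depth. The deposited TPM of the authors rescale them to the same sum in each library and were used as an alternative only. The number of sample columns left unused was 0.

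Contigs were grouped into unigenes by Trinity identifier, with counts and FPKM summed and the longest contig as length. Short or multi-contig unigenes can divide reads and alter summed FPKM, and the intervals of ratios take the FPKM per count of a unigene as fixed. Ratios are ratios of FPKM with exact conditional 95% intervals of the counts, and counts past 2-fold used log2(FPKM + 0.1) over unigenes with at least 20 counts. A count of 0 was taken to allow up to 3 counts. No test between tissues was possible with 1 library each. Calculations were tested on simulated data. Named were, per enzyme, the 2 unigenes highest outside leaf and the 1 highest in leaf with at least 100 counts, and the 2 largest ratios in each direction per pair of tissues. TR18762|c0_g1, TR21344|c0_g1, TR33349|c0_g1, TR39312|c0_g1, TR41817|c0_g1, TR47400|c0_g1, TR48712|c0_g1, TR59762|c0_g1, TR60599|c0_g1, TR68335|c0_g1, TR68381|c0_g1 and the unigenes of other enzymes were named after their values were seen. The enzymes and lists were chosen with earlier results of these data known. The parts of the authors' annotation lists not used here were not analysed here, so an enzyme can have more unigenes than are described. Alternatives were TPM, counts scaled by depth alone, TMM (edgeR 4.0.16 in R 4.3.3) and median-of-ratios scaling, other filters and pseudocounts, listed contigs only and the most abundant contig. Leaving out TR35404|c0_g1 and TR68986|c3_g1 was chosen after the data were seen. Python 3.11.15, numpy 2.4.6, pandas 2.3.3, scipy 1.17.1 and matplotlib 3.10.9 were used.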

Additional observations from a re-analysis of the deposited data

How the results depend on the processing

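No paired analysis was possible because each tissue has 1 library. TMM factors over all 5 libraries moved the median of all unigenes by as far as -3.51 on the log2 scale (flower to rhizome_O), against at most 0.13 for TMM factors without leaf. They gave, of the 47 unigenes past 2-fold, 47 for rhizome_O and 0 for secRoot, 0 for rhizome_Y and 46 for rhizome_O, 7 for flower and 16 for rhizome_Y, 0 for flower and 44 for rhizome_O, and 9 for flower and 13 for secRoot. By highest tissue they gave 41 for rhizome_O, 1 for flower and 0 for rhizome_Y and secRoot. Under them the log2 differences of flower to rhizome_O became -1.30 (TR66176|c0_g1), -2.22 (TR61633|c0_g1), -2.35 (TR67317|c0_g1), -0.035 (TR67513|c0_g2), -1.05 (TR60478|c0_g2) and -2.16 (TR67632|c0_g2), and those of rhizome_Y to rhizome_O -0.83 (TR51702|c0_g1) and -1.68 (TR60478|c0_g2). With factors computed without the leaf library no named difference past 2-fold changed sign.

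With at least 100 counts, by construction on fewer unigenes, 12 and 3 passed in rhizome_Y and secRoot, 2 and 3 for rhizome_Y and rhizome_O, 0 for secRoot against rhizome_O, and 19 for leaf, which was also the number highest in leaf. With no filter, on all 135, the counts were 44 and 11 (rhizome_O, secRoot), 29 and 20 (rhizome_Y, secRoot), 16 and 28 (rhizome_Y, rhizome_O), 31 and 15 (flower, rhizome_Y), 25 and 29 (flower, rhizome_O), 33 and 17 (flower, secRoot), and 61 and 74 (leaf, other tissues), and 61, 39, 17 and 9 were highest in leaf, flower, rhizome_O and secRoot. A pseudocount of 1 left 1 higher in rhizome_Y than in rhizome_O. Median-of-ratios scaling left 29 below the other tissues in leaf. Among unigenes of at least 500 bp, an alternative chosen after seeing the data, 0 and 2 were higher in secRoot than in rhizome_O and rhizome_Y, and 3 higher than in flower.

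The ratio of starch synthesis to breakdown was the least stable value, and the cause was not tested beyond what each setting leaves out. It became 1.09 for flower, 0.724 for rhizome_Y and 0.488 for rhizome_O on listed contigs, and 0.402 for leaf, 0.673, 0.584 and 1.34 for secRoot without the most abundant unigene of each sum. Chosen after seeing the data, summed counts gave 0.999 for flower, 1.1 for leaf, 0.993 for rhizome_Y, 0.686 for rhizome_O and 1.178 for secRoot, unigenes of at least 500 bp 1.49, 0.910, 0.923 and 0.711 in the first 4 of these tissues, and leaving out TR35404|c0_g1 1.213, 0.919 and 1.178 in the last 3. Medians over unigenes gave 0.0235 for leaf, 39.0 for rhizome_Y, 11.4 for rhizome_O and 33.3 for secRoot, since most breakdown unigenes were counted in leaf. Of the values of named differences under alternatives, 405 stayed within counting error, 112 moved beyond it and 8, those above, were past 2-fold and changed sign.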
